A study of Homo sapiens with 4 samples.

Results

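The mitosis and spindle genes are 52 genes whose products build the spindle, attach and separate chromosomes and divide the cell, out of 9193 genes measured on the arrays. They were listed by gene name, with earlier results of these data known. All 52 were measured, each through its brightest probe set (a probe set is a group of short probes for 1 transcript) by mean over the arrays. For this description they were sorted into 13 cyclins, kinases and their partners, 9 checkpoint and anaphase genes, 6 kinesins, 6 kinetochore and centromere genes, 6 condensin and chromosome genes, 3 cytokinesis genes and 9 genes of spindle assembly and microtubules.

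The study asked how inhibition of β-TrCP, the substrate-binding part of an E3 ubiquitin ligase, acts together with androgen ablation in LAPC4, an androgen-sensitive human prostate cancer cell line. RNA of 4 cultures was hybridised to 1 Affymetrix array each after 72 hours of treatment. The groups were cells infected with β-TrCP shRNA in charcoal stripped serum (CSS, serum depleted of steroids), cells infected with β-TrCP shRNA in full fetal calf serum (FCS), control cells infected with GFP in CSS, and control cells infected with GFP in FCS. All cells were LAPC4 in RPMI medium with 10% of either serum, and only the FCS medium held the synthetic androgen methyltrienolone at 100 pM, so serum and added androgen changed together. The lentiviral shRNA, which targets both β-TrCP1 and β-TrCP2, is induced by doxycycline. The study's text and the sample labels differ on the control: the text describes cells that all carry the shRNA vector, with or without doxycycline, whereas the labels name GFP infection and no doxycycline. The labels are followed here, and what else separates shRNA and control arrays cannot be told apart from the shRNA. Each condition was a single array, so no difference between 2 arrays has a replicate check.

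Progression through mitosis is driven by cyclin B bound to CDK1, together with the Polo and Aurora kinases. The spindle checkpoint holds the anaphase-promoting complex (APC/C) back until every kinetochore is attached; the complex then marks securin and the cyclins for destruction and separase cuts cohesin. Transcripts of many of these genes accumulate in G2 and M phase and are low in resting cells, and their level is widely read as a mark of proliferation. The study itself reported reduced growth of LAPC4 cells with β-TrCP shRNA, by a cell growth assay (XTT). The arrays do not measure growth, and how the member transcripts relate to it was not tested. In bulk RNA, a smaller share of dividing cells and less RNA in each of them cannot be told apart.

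Promoters of such genes often carry a CHR element (letters TTTGAA) close to CCAAT boxes, and both were searched on both strands in the 250 bases before the RefSeq start (GRCh38.p14) of the 43 members with an entry. A CHR match was found in 23 members (53.5%), against 13.6% of all 27305 promoters and 8.35% of the 7448 promoters of measured genes. CCAAT was found in 33 members (76.7%), against 33.0% of all promoters, 35.8% of those of measured genes and 63.0% of those of 27 DNA replication genes, in which CHR was found in 3.7%, and both motifs in 20 members (46.5%), against 4.85% and 3.46%. The 3 sequences that follow belong to the cyclins and kinases and the checkpoint and anaphase genes, and are shown because among the members of these sub-groups picked by size of change they hold a CHR match, with the capitals marking TTTGAA or its reverse complement TTCAAA and CCAAT or its reverse complement ATTGG. The CHR match began 29 bases before the start in PLK1 and 31 in ESPL1, but 170 in CDKN3.
PLK1, chr16:23678639-23678888, plus strand: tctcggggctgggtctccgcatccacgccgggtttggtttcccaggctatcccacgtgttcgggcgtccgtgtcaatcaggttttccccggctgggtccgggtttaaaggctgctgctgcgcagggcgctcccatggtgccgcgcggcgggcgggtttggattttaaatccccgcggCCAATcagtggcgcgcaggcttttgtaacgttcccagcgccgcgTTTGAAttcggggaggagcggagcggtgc
ESPL1, chr12:53268049-53268298, plus strand: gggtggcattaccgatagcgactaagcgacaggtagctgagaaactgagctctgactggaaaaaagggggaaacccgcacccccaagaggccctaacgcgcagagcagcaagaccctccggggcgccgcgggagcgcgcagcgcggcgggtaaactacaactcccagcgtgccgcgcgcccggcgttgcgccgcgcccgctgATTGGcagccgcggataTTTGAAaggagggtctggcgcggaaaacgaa
CDKN3, chr14:54396757-54397006, plus strand: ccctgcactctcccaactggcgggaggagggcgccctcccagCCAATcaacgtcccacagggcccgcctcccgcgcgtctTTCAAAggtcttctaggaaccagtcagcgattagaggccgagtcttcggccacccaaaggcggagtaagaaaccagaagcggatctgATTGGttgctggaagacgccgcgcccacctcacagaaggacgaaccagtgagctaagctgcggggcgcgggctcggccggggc
The median log2 change with shRNA in FCS was 0.53 over the 23 members with a CHR match and 0.70 over the 20 without one, and with CSS in control cells it was -0.43 and -0.41. A match describes the letters in this window and was not tested for any factor.

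The labels were checked first on the targets of the shRNA. FBXW11, which encodes β-TrCP2, had log2 signals of 4.68 with shRNA in CSS, 5.02 with shRNA in FCS, 8.19 in control cells in CSS and 8.02 in control cells in FCS. BTRC, which encodes β-TrCP1, was at the lower limit of 4.32 set for all signals (a signal of 20) on both shRNA arrays, against 4.64 in control cells in CSS and 4.50 in control cells in FCS. Of 12 markers of prostate luminal epithelium, 9 were measured and all 9 were above this limit on every array. KLK3 and KLK2, which androgen induces in prostate cells, were not lower in control cells without added androgen. They were at 9.74 and 9.00 in CSS, against 9.00 and 8.30 in FCS. TMPRSS2, also induced by androgen, was at 7.73 in CSS, against 8.22 in FCS. The serum of each array could be taken only from its label. Of the 9 luminal markers, 6 were higher and 3 lower in control cells in CSS than in FCS. Their log2 changes ran between -0.48 and 0.74, with a median of 0.24 (all genes 0.02). Past 2 local spreads, a measure explained below, 3 were higher and 0 lower, against 272 higher and 230 lower of 7994 genes. These values cover the control arrays only, and the study named KLK2 among genes prominently lower under androgen ablation together with β-TrCP inhibition. The array of shRNA cells in CSS stood apart: its correlation with the other arrays was 0.925 to 0.927, against 0.979 to 0.989 among the others, and the interquartile range of its deposited log2 signals was 2.07, against 2.69 to 2.74. On that array 5 of 8 fibroblast markers with a probe set lay above the limit, against 2 on each other array, and 2 of 6 leukocyte markers did, against 0, while the endothelial marker PECAM1 was at the limit on all 4. Fewer probe sets of any kind lay under the limit on that array, 35.0%, against 41.7% to 42.0%. COL1A2, DCN, PDGFRB, CD3D and CD14 entered the table only through that array, so their being above the limit there is no finding. Their signals were low, with a summed linear signal of 178 for the fibroblast list, against 113 to 118, and their part in the results was not tested, and each of the 3 comparisons with that array rests on it.

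Over the 52 members, the array of shRNA cells in FCS was the highest for 49 and the array of control cells in CSS was the lowest for 40, with the array of shRNA cells in CSS the lowest for the other 12. The median log2 signal of the members was 7.91 with shRNA in CSS, 8.40 with shRNA in FCS, 7.38 in control cells in CSS and 7.58 in control cells in FCS. In 25 members the order was shRNA in FCS, shRNA in CSS, control in FCS and control in CSS, high to low. The plot of signals by sub-group shows the peak at shRNA in FCS in nearly every line.

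**Figure D1:**
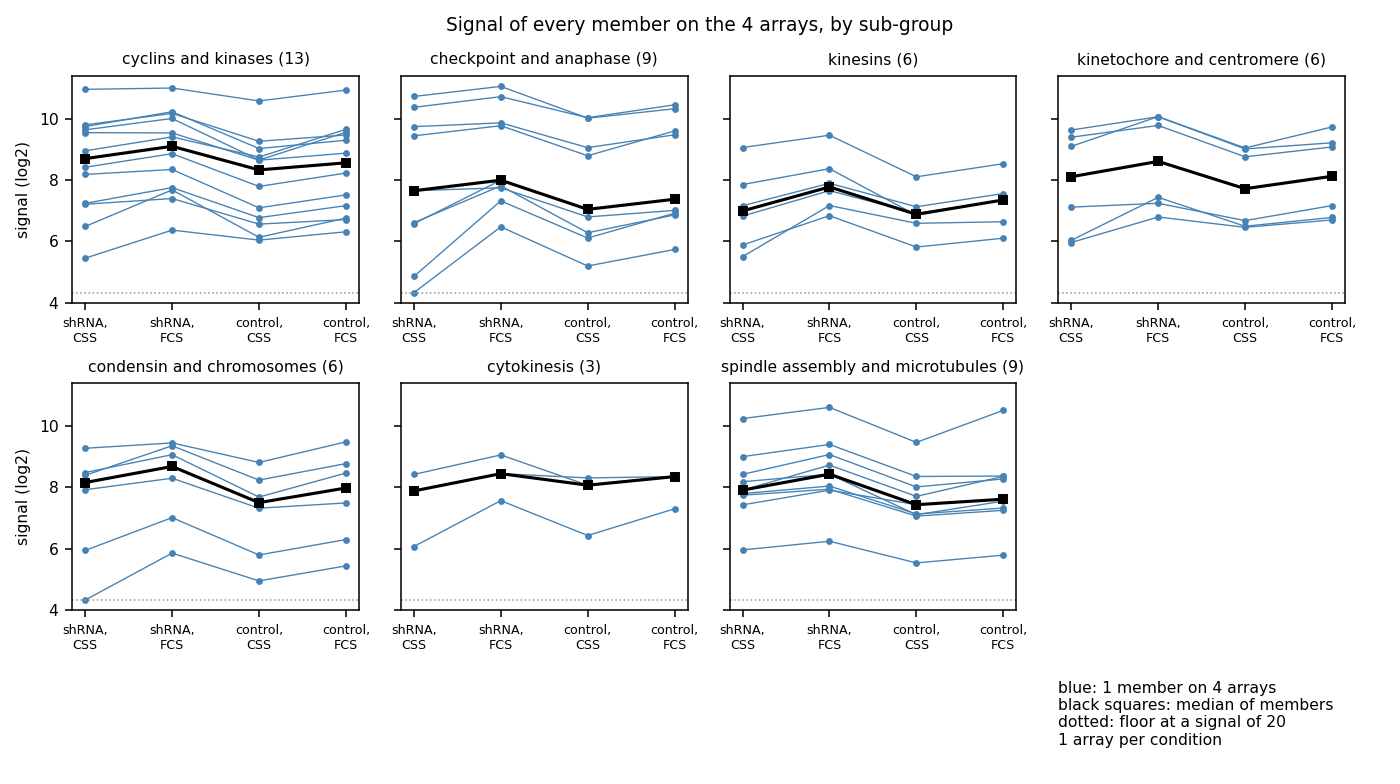
Signal (log2) of every member on the 4 arrays, 1 panel per sub-group, with the median of the members as black squares and the lower limit of 4.32 dotted. The array of shRNA cells in FCS was highest for 49 of 52 members, and TTK and SMC2 lay at the limit with shRNA in CSS.

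With β-TrCP shRNA in FCS, 50 of 52 members were higher than in control cells in FCS, against 49.9% of all genes, with a median log2 change of 0.61 (all genes 0.00). A change was set against the local spread, a scaled median absolute deviation taken, on the same 2 arrays, from the differences of the 1000 probe sets closest to it in brightness. Past 2 local spreads lay 22 members, all higher, against 4.17% of all genes that were higher by as much. Only TPX2 and KIF20A reached 2-fold, against 0.801% of all genes. The 2 members that were lower were CDKN3 and TOP2A, at -0.25 and -0.03. The changes of all members ran between -0.25 and 1.03.

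With CSS in control cells, all 52 members were lower than in FCS, against 46.7% of all genes, with a median log2 change of -0.41 (all genes 0.02). Past 2 local spreads were 14 members, against 2.88% of all genes that were lower by as much, and KPNA2 was the one that reached 2-fold, against 0.138% of all genes. On the control array in CSS the 3′ minus 5′ difference of the ACTB control probe sets, a sign of RNA quality, was 1.03 on the log2 scale, against 0.41 to 0.45 on the other arrays, and that of GAPDH was 0.18, against -0.01 to 0.03. The same array is the reference for the comparison of shRNA with control in CSS. The part of this difference in the lower member signals, and in the changes with shRNA in CSS, was not tested.

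**Figure D2:**
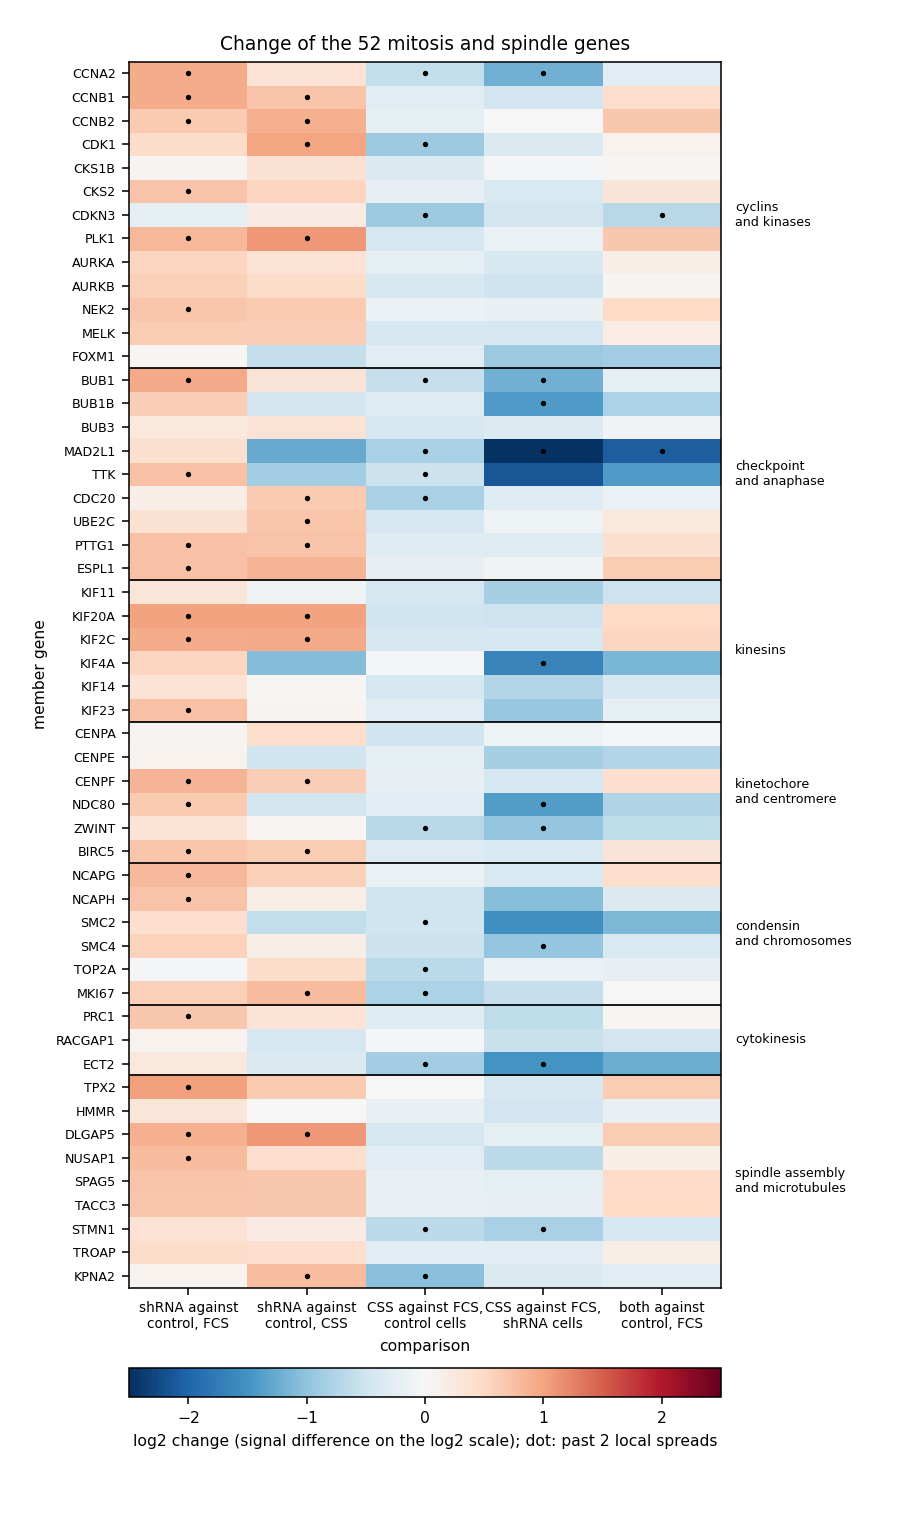
Log2 change of each of the 52 members (down) in the 5 comparisons (across), red for higher and blue for lower in the group named first, with a dot where the change passed 2 local spreads. The column for shRNA in FCS is red in 50 members and the column for CSS in control cells is blue in all 52.

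The layout of 4 arrays gives each treatment 2 pairs of arrays with no array in common. In CSS, 40 members were higher with shRNA than in control cells (50.5% of all genes), 14 past 2 local spreads (1.89% of all genes), with a median log2 change of 0.42. Members higher with shRNA in both serum conditions numbered 38, against 26.1% of genes with values in both pairs, and 9 were past 2 local spreads in both, against 0.445%. These 9 were CCNB1, CCNB2, PLK1, PTTG1, KIF20A, KIF2C, CENPF, BIRC5 and DLGAP5. In shRNA cells, 51 members were lower in CSS than in FCS (47.9% of all genes), 10 past 2 local spreads (1.4%) and 10 by 2-fold or more (6.63%), with a median of -0.47. Lower with CSS in both cell backgrounds were 51 members, against 28.2%. Past 2 local spreads in both were 6, against 0.432%, namely CCNA2, BUB1, MAD2L1, ZWINT, ECT2 and STMN1. The other kept probe sets of CCNA2 and BUB1 were within 2 local spreads with CSS in shRNA cells. Opposite directions in the pairs were seen in 14 members for shRNA, against 43.1% of all genes, and in 1 member for CSS, against 42.7%.

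A main effect was then fitted for each treatment over both pairs with limma, with serum and shRNA as terms and no interaction, which leaves 1 degree of freedom for the error. The error of a gene is its departure from the sum of the 2 effects, moderated by a variance pooled over genes, and it reflects these 4 arrays only. Over all 9193 genes no member and no gene passed a Benjamini-Hochberg adjusted p of 0.05, either as higher with shRNA (0.0%) or as lower with CSS (0.0%), and the lowest adjusted p of a member in this limma fit was 0.707 for shRNA and 0.695 for CSS. At an unadjusted p under 0.05, 25 members were higher with shRNA, against 2.57% of genes, and 17 were lower with CSS, against 2.92%. The 9193 genes include 338 at the lower limit on all 4 arrays, whose residual variance is 0. In a fit without them, run after the first had called nothing, limma passed 24 members as higher with shRNA, against 1.57% of 8855 genes, and 15 as lower with CSS, against 1.42%, and without the trend of variance on mean signal no member passed in either gene set. In the fit with calls the prior degrees of freedom were infinite, against 1.44 over all genes, and the variance then came from the trend over genes alone, with no weight on a member's own departure. Over the planned settings the count for shRNA ran between 0 and 27 and that for CSS between 0 and 15, so the calls depended on the genes fitted and on the variance model.

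Among the cyclins and kinases, 12 of 13 members were higher with shRNA in FCS (median log2 change 0.63, 6 past 2 local spreads) and all 13 were lower with CSS in control cells (median -0.36, 3 past). CCNB1, cyclin B1, had log2 signals of 9.74 with shRNA in CSS, 10.22 with shRNA in FCS, 9.02 in control cells in CSS and 9.30 in control cells in FCS. Both shRNA arrays lay above both control arrays, by 0.93 in FCS and 0.72 in CSS. PLK1, the Polo kinase that drives mitotic entry and spindle formation, had 8.18 and 8.34 with shRNA in CSS and in FCS, against 7.09 and 7.51 in control cells in CSS and in FCS. Its 2 pairs did not overlap either, and with shRNA it was 2.13-fold higher in CSS and 1.78-fold higher in FCS. CCNA2, cyclin A2, which acts in S phase and early mitosis, followed the serum more in its brightest probe set. That probe set had 6.48 with shRNA in CSS and 7.67 with shRNA in FCS. It had 6.13 and 6.75 in control cells in CSS and in FCS. It was lower with CSS in both backgrounds, past 2 local spreads. The log2 decreases were 1.19 in shRNA cells and 0.62 in control cells. The other kept probe set of CCNA2 was higher with shRNA by 1.18 in FCS and 0.87 in CSS. With CSS that probe set was lower by 0.93 in shRNA cells, within 2 local spreads. In control cells it was lower by 0.62, past them.

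CDK1, the kinase that cyclin B activates, and CCNB2, cyclin B2, were higher with shRNA in CSS by 0.99 and 0.90, both past 2 local spreads, and by 0.45 and 0.66 in FCS. Other kept probe sets of CDK1 differed with shRNA in CSS by 0.35, within 2 local spreads, and by 1.19, past them. CDKN3, a phosphatase that acts on CDKs, ran against the rest of the sub-group, at 8.95 with shRNA in CSS and 9.40 with shRNA in FCS, against 8.75 and 9.65 in control cells in CSS and in FCS. Its control array in FCS was the highest of the 4. FOXM1, a transcription factor for G2 and M phase genes, was dim, at 5.45 with shRNA in CSS and 6.36 with shRNA in FCS, against 6.04 and 6.31 in control cells in CSS and in FCS, and no change of it passed 2 local spreads. For the others, the changes with shRNA in FCS were 0.70 for CKS2 and 0.07 for CKS1B, small CDK-binding proteins, 0.54 for AURKA and 0.59 for AURKB, the Aurora kinases, 0.69 for NEK2, a centrosomal kinase, and 0.63 for MELK, a kinase of proliferating cells. Of these 6, CKS2 and NEK2 passed 2 local spreads.

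All 9 checkpoint and anaphase genes were higher with shRNA in FCS (median 0.62, 4 past 2 local spreads) and lower with CSS in control cells (median -0.42, 4 past). BUB1, a checkpoint kinase at the kinetochore, had log2 signals of 6.61 with shRNA in CSS and 7.81 with shRNA in FCS, against 6.28 and 6.86 in control cells in CSS and in FCS. ESPL1, separase, had 7.65 and 7.74 with shRNA in CSS and in FCS, against 6.79 and 7.01 in control cells in CSS and in FCS. For ESPL1 the shRNA arrays lay close together above the control arrays, whereas for BUB1 the array of shRNA cells in FCS stood alone. MAD2L1, the checkpoint protein that binds CDC20, had 4.85 with shRNA in CSS and 7.32 with shRNA in FCS, against 6.10 and 6.92 in control cells in CSS and in FCS. With both treatments it was 4.18-fold lower than in control cells in FCS, past 2 local spreads, with only the array of shRNA cells in CSS near the lower limit. TTK, the kinase that starts the checkpoint signal, was at the limit with shRNA in CSS, against 6.47 with shRNA in FCS, 5.19 in control cells in CSS and 5.73 in control cells in FCS, and with both treatments was at least 2.66-fold lower than in control cells in FCS.

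PTTG1, CDC20, UBE2C and BUB3 were bright and higher with shRNA in both serum conditions. PTTG1, securin, had 10.72 and 11.05 with shRNA in CSS and in FCS, against 10.01 and 10.32 in control cells in CSS and in FCS. CDC20, the APC/C activator, and UBE2C, its ubiquitin-conjugating enzyme, were higher with shRNA in CSS by 0.65 and 0.68, past 2 local spreads, and by 0.17 and 0.39 in FCS. BUB3, a partner of BUB1, was higher by 0.34 in CSS and 0.27 in FCS. BUB1B, which blocks the APC/C, was dimmer and, like MAD2L1 and TTK, lowest with shRNA in CSS, at 6.57, and it was lower with CSS in shRNA cells by 1.42, past 2 local spreads, and by 0.33 in control cells.

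All 6 kinesins, motors that move along microtubules, were higher with shRNA in FCS (median 0.63, 3 past 2 local spreads) and lower with CSS in control cells (median -0.43, none past). KIF20A, a motor of the central spindle, had 7.85 and 8.37 with shRNA in CSS and in FCS, against 6.85 and 7.36 in control cells in CSS and in FCS. KIF2C, which takes microtubules apart at the kinetochore, had 9.06 and 9.46 with shRNA in CSS and in FCS, against 8.10 and 8.53 in control cells in CSS and in FCS. For both genes the shRNA arrays lay above both control arrays, with changes of 1.00 and 0.96 in CSS and 1.01 and 0.93 in FCS. KIF4A, a chromosome-bound motor, had 5.50 with shRNA in CSS and 7.17 with shRNA in FCS, against 6.58 and 6.64 in control cells in CSS and in FCS. KIF23, a motor of cytokinesis, had 5.88 with shRNA in CSS and 6.83 with shRNA in FCS, against 5.81 and 6.10 in control cells in CSS and in FCS. The array of shRNA cells in CSS was thus the lowest for KIF4A and level with the control array in CSS for KIF23. KIF11, which pushes spindle poles apart, and KIF14, which acts in cytokinesis, were higher with shRNA in FCS by 0.31 and 0.33 and differed by -0.09 and 0.03 in CSS, all within 2 local spreads.

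All 6 kinetochore and centromere genes were higher with shRNA in FCS (median 0.50, 3 past 2 local spreads) and lower with CSS in control cells (median -0.30, 1 past). CENPF, a large kinetochore protein of G2 and M phase, had 9.63 and 10.06 with shRNA in CSS and in FCS, against 9.01 and 9.21 in control cells in CSS and in FCS. BIRC5, survivin, part of the chromosomal passenger complex, had 9.39 and 9.78 with shRNA in CSS and in FCS, against 8.76 and 9.08 in control cells in CSS and in FCS. Neither gene's shRNA arrays overlapped its control arrays in the brightest probe set. A second, dim probe set of CENPF was at the lower limit with shRNA in CSS. It had 4.53 and 4.49 in control cells in CSS and in FCS. NDC80, which binds microtubules at the kinetochore, had 6.03 with shRNA in CSS and 7.43 with shRNA in FCS, against 6.49 and 6.78 in control cells in CSS and in FCS. CENPE, a kinetochore motor, had 5.96 with shRNA in CSS and 6.79 with shRNA in FCS, against 6.45 and 6.69 in control cells in CSS and in FCS. Both were lowest with shRNA in CSS. ZWINT, a kinetochore scaffold, was lower with CSS by 0.97 in shRNA cells and by 0.69 in control cells, past 2 local spreads in both, and CENPA, the centromeric histone, was higher with shRNA by 0.44 in CSS and 0.07 in FCS.

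Of the 6 condensin and chromosome genes, 5 were higher with shRNA in FCS (median 0.59, 2 past 2 local spreads) and all 6 were lower with CSS in control cells (median -0.52, 3 past). NCAPG, a condensin subunit, had 7.92 and 8.30 with shRNA in CSS and in FCS, against 7.32 and 7.49 in control cells in CSS and in FCS. NCAPH, a second condensin subunit, had 5.94 with shRNA in CSS and 7.01 with shRNA in FCS, against 5.79 and 6.30 in control cells in CSS and in FCS. MKI67, the Ki-67 protein that coats mitotic chromosomes, had 8.48 and 9.06 with shRNA in CSS and in FCS, against 7.68 and 8.46 in control cells in CSS and in FCS. The shRNA arrays of NCAPG lay above its control arrays, while those of NCAPH overlapped them and the lower shRNA array of MKI67 lay only 0.02 above its higher control array. In the other kept probe sets of MKI67, shRNA in CSS against control cells in FCS gave -0.55, -0.41 and -0.97. Against control cells in CSS, shRNA in CSS gave 0.03, 0.38 and -0.72 there, and 0.80 in the brightest probe set. SMC2, an ATPase of condensin, was at the lower limit with shRNA in CSS, against 5.85 with shRNA in FCS, 4.95 in control cells in CSS and 5.44 in control cells in FCS, whereas its bright partner SMC4 was lower with CSS by 0.96 in shRNA cells and by 0.54 in control cells. TOP2A, the topoisomerase that untangles sister DNA, was lower with CSS in control cells by 0.67, past 2 local spreads, and differed by -0.03 with shRNA in FCS.

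The 3 cytokinesis genes were higher with shRNA in FCS (median 0.27, 1 past 2 local spreads) and lower with CSS in control cells (median -0.30, 1 past). PRC1, which bundles the central spindle, had 8.42 and 9.06 with shRNA in CSS and in FCS, against 8.07 and 8.37 in control cells in CSS and in FCS. ECT2, the exchange factor that activates RhoA at the cleavage furrow, had 6.07 with shRNA in CSS and 7.56 with shRNA in FCS, against 6.43 and 7.30 in control cells in CSS and in FCS. Both ECT2 arrays in CSS lay below both in FCS. RACGAP1, the partner of KIF23, had 7.88 with shRNA in CSS and 8.45 with shRNA in FCS, against 8.31 and 8.35 in control cells in CSS and in FCS, and none of its changes passed 2 local spreads.

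All 9 genes of spindle assembly and microtubules were higher with shRNA in FCS (median 0.69, 3 past 2 local spreads) and lower with CSS in control cells (median -0.25, 2 past). TPX2, which activates Aurora A on the spindle, had 9.00 and 9.40 with shRNA in CSS and in FCS, against 8.35 and 8.37 in control cells in CSS and in FCS. DLGAP5, a spindle microtubule protein, had 8.18 and 8.43 with shRNA in CSS and in FCS, against 7.11 and 7.55 in control cells in CSS and in FCS. NUSAP1, which bundles spindle microtubules, had 8.42 and 9.07 with shRNA in CSS and in FCS, against 8.01 and 8.27 in control cells in CSS and in FCS. For all 3 the shRNA arrays lay above both control arrays, and the control arrays of TPX2 differed by -0.01 between CSS and FCS. In the other kept probe set of NUSAP1, however, shRNA in CSS, at 8.11, lay below control cells in FCS, at 8.16. KPNA2, an importin that carries cargo into the nucleus, had a different shape, with 10.24 and 10.61 with shRNA in CSS and in FCS, against 9.47 and 10.51 in control cells in CSS and in FCS, and only the control array in CSS was low. The other kept probe set of KPNA2 had 8.66 and 9.55 with shRNA in CSS and in FCS, against 8.71 and 9.42 in control cells in CSS and in FCS, so there both arrays in CSS were low and the probe sets disagreed on shRNA in CSS, at -0.06 and 0.78. STMN1, which takes microtubules apart, was lower with CSS by 0.82 in shRNA cells and by 0.65 in control cells. SPAG5 and TACC3, spindle-associated proteins, were higher with shRNA by 0.67 and 0.68 in CSS and by 0.72 and 0.69 in FCS, none of them past 2 local spreads. HMMR and TROAP, also tied to the spindle, were higher with shRNA in FCS by 0.29 and 0.45.

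**Figure D3:**
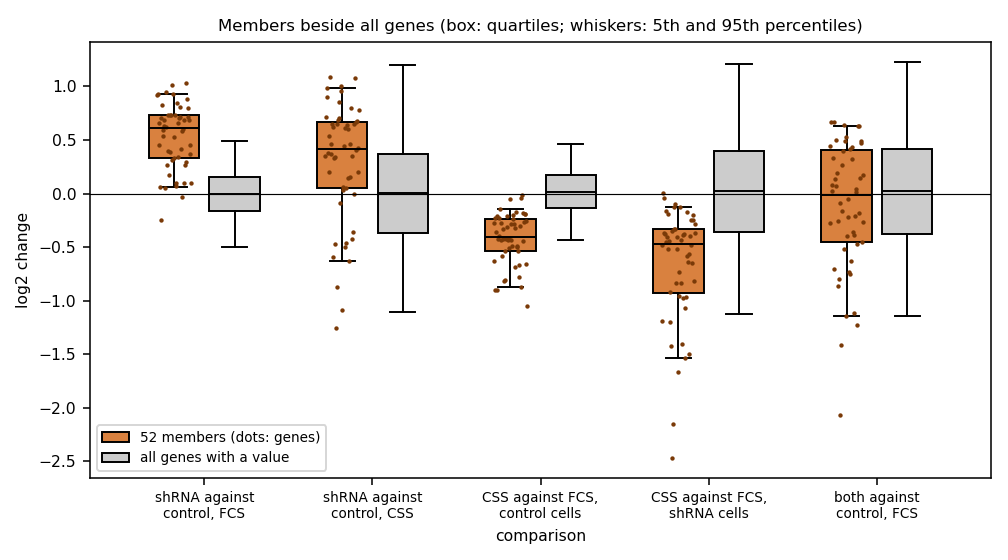
Log2 change of the 52 members (orange, dots for genes) beside all genes with a value (grey) in the 5 comparisons; boxes are quartiles and whiskers span the outer percentiles named in the title. The members' median was 0.61 with shRNA in FCS, -0.41 with CSS in control cells and -0.02 with both treatments.

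With both treatments against control cells in FCS, the members split evenly, 26 higher, against 52.4% of all genes, with a median log2 change of -0.02. MAD2L1 and CDKN3 were lower past 2 local spreads, against 1.59% of all genes, and 5 members were lower by 2-fold or more, against 6.91%. These 5 were MAD2L1, TTK, KIF4A, SMC2 and ECT2, with TTK and SMC2 as bounds. Both shares of members are small counts near or little above those of all genes. The departure of the combined change from the sum of the single changes had a median of -0.17 in the members, with 37 of 52 below the sum, and of -0.05 over all genes, of which 54.3% lay below it; a full model of 4 arrays leaves nothing to test it with.

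The comparisons that include the array of shRNA cells in CSS depended on how bright a member was, a split made after the values were seen. Of the 26 brighter members, 25 were higher with shRNA in CSS (median 0.62), while of the 26 dimmer members 15 were (median 0.11). Of all genes in the same ranges of signal, 47.5% of the brighter (median -0.02) and 44.7% of the dimmer (median -0.10) were higher. With CSS in shRNA cells the medians were -0.40 in the brighter and -0.83 in the dimmer members, against -0.01 and -0.08 for all genes of those ranges, and the departure from the sum was -0.01 and -0.48. In FCS the split made little difference, with medians for shRNA of 0.59 and 0.64. Across the 52 members, which share their arrays, mean signal and change had a correlation of 0.56 with shRNA in CSS and of -0.11 with shRNA in FCS. With shRNA in CSS the local spread had a median of 0.56 around the dimmer members, against 0.30 around the brighter ones. With shRNA in FCS these medians were 0.33 and 0.31.

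**Figure D4:**
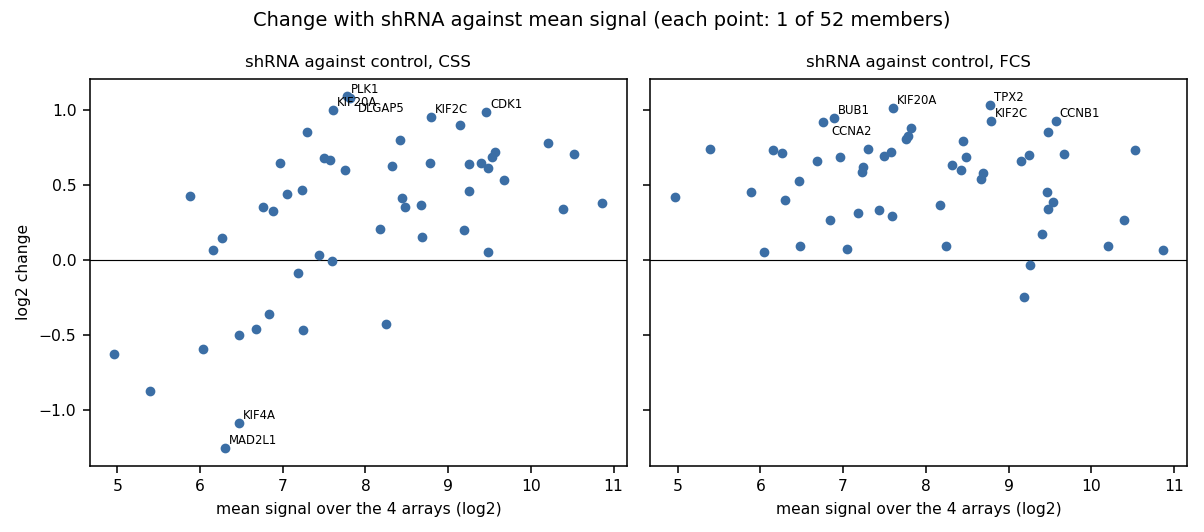
Log2 change with shRNA against mean signal over the 4 arrays (log2), 1 point per member, in CSS (left) and in FCS (right). In CSS, 12 members lay below 0, of which 11 were among the 26 dimmer ones, and in FCS 50 of 52 lay above 0.

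Scaling mattered for the same comparisons. In the deposited values, before quantile normalization, the median of all genes was -0.20 with shRNA in CSS and -0.16 with both treatments, and 26 members were higher with shRNA in CSS and 13 with both treatments. Set against that shift of all genes, 34 members lay above the median of all genes with shRNA in CSS and 19 with both treatments. The medians of the kinesins, the kinetochore and centromere genes and the condensin and chromosome genes with shRNA in CSS, 0.05, 0.25 and 0.31 after normalization, were -0.40, -0.18 and -0.06 in the deposited values. Relative to the shift of all genes they were -0.19, 0.03 and 0.15, and of these 3 only the kinesins stayed below it. With the arrays set to 1 shared median they were -0.09, 0.13 and 0.24, with the median of all genes at 0.08. In FCS 50 members were higher with shRNA in the deposited values too.

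Other probe sets were kept for 18 members, 25 in all, and served as a check. With shRNA in FCS all 25 were higher (median 0.46), and with CSS in control cells 24 were lower (median -0.37). They had the direction of the brightest probe set in 24 of 25 cases in each of these comparisons and with CSS in shRNA cells, in 21 with shRNA in CSS and in 14 with both treatments. A second probe set of TOP2A, whose brightest one differed by -0.03 with shRNA in FCS, differed by 0.16. For 34 members there was 1 kept probe set, so no such check.

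**Figure D5:**
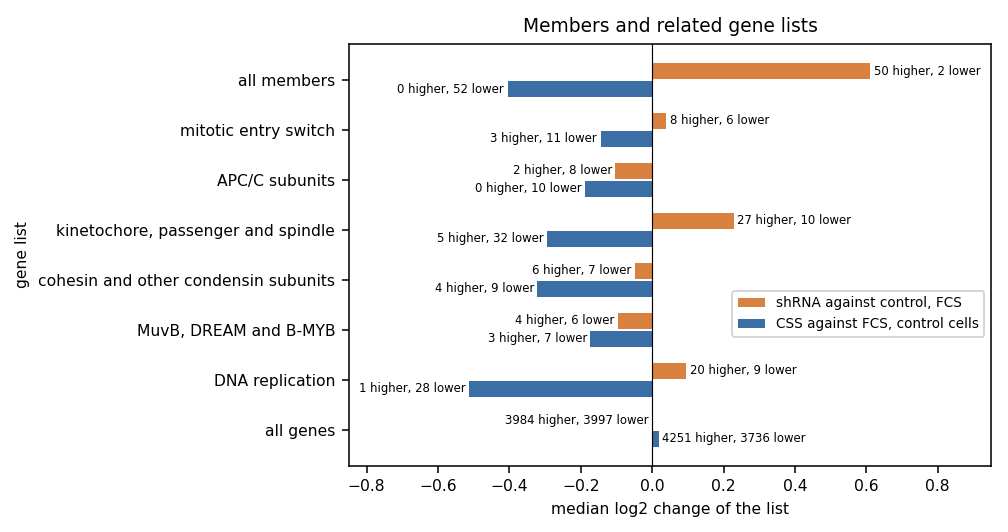
Median log2 change of the members and of related gene lists, with shRNA in FCS (orange) and with CSS in control cells (blue), and the number of genes higher and lower in each. The members had the median of 0.61 with shRNA, against 0.10 for 29 DNA replication genes.

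Medians of genes that work beside the members were smaller with shRNA in FCS than that of the members. The 29 measured DNA replication genes had a median log2 change of 0.10 with shRNA in FCS (20 higher) and of -0.51 with CSS in control cells (28 lower, 12 past 2 local spreads), and with shRNA in FCS 3 were higher and 1 lower past 2 local spreads. Over all genes, 49.9% were higher with shRNA in FCS and 4.17% past 2 local spreads, and 46.7% were lower with CSS in control cells and 2.88% past them, shares against which the counts of these lists are to be read. Of 37 other kinetochore, passenger and spindle genes, 27 were higher with shRNA in FCS (median 0.23, 4 past 2 local spreads) and 32 were lower with CSS in control cells (median -0.29, 10 past). The 4 were KIF18A, a kinesin, at 0.81, CDCA8, a subunit of the passenger complex, at 0.76, ASPM, a spindle pole protein, at 0.70, and CEP55, which acts at the last step of cytokinesis, at 0.67. PLK4, the kinase of centriole duplication, was at the lower limit with shRNA in CSS and at most -2.28 with both treatments.

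Of the 10 measured APC/C genes, 2 were higher with shRNA in FCS (median -0.10), and ANAPC13, a subunit, was lower by 0.70, past 2 local spreads. In the 14 measured genes of the mitotic entry switch the median was 0.04, although WEE1, the kinase that inhibits CDK1, CDC25C, the phosphatase that activates it, and CCNF, cyclin F, were higher by 0.73, 0.72 and 0.86, and CCNH, cyclin H, was lower by 0.76, all past 2 local spreads. Cohesin and other condensin subunits had a median of -0.05 (6 of 13 higher), with NCAPD2, a condensin subunit, at 0.71. MuvB, DREAM and B-MYB genes, regulators of cell cycle transcription, had a median of -0.10 (4 of 10 higher), with E2F5 at 0.64 and RBL2, the pocket protein p130, at -0.64. Of 5 measured CDK inhibitors all 5 were higher with shRNA in FCS (median 0.19), CDKN1C past 2 local spreads at 0.61. Among 5 measured mitotic substrates of β-TrCP itself, 4 were higher (median 0.17), with WEE1 past 2 local spreads.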

How the data were processed

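RNA of 4 LAPC4 cultures, 1 per condition, was measured on Affymetrix arrays. The authors deposited log2 signals per probe set from MAS5; their methods describe a filter on signal and present calls and quantile normalization, but the deposited log2 columns do not share a distribution and hold all 22277 probe sets, with no present calls. The 15678 probe sets that reached a signal of 20 on 1 array or more were kept, quantile normalized and set to at least 20 (log2 4.32), and each gene took its brightest probe set (9193 genes). The platform annotation named 1 gene for 19070 probe sets, more than 1 for 1043, and no gene for the other 2164; 19058 matched RefSeq by gene ID. A gene at the limit on 1 array of a comparison gives a bound, and on both no value. limma 3.58.1 (R 4.3.3) fitted serum and shRNA with a variance trend and Benjamini-Hochberg adjustment over all genes. The calculations were run on simulated data with the same noise for every gene, no lower limit and no serum effect. That run does not cover genes at the limit or an array that stands apart. The members, gene lists and tests were chosen with earlier results of these data known. Signals on all 4 arrays are given for the members of each sub-group with the 3 largest changes with shRNA in FCS and the 2 largest with both treatments, with PTTG1 and KPNA2 added after their values were seen; of other lists, the up to 4 and 2 largest past 2 local spreads in the same comparisons qualified, and some of them are given. Alternatives covered normalization, lower limit, filter, probe set and threshold. Protein sequences were not analysed here.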

Additional observations from a re-analysis of the deposited data

Results flagged for a closer look

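In 14 members the change with shRNA had opposite directions in CSS and in FCS, against 43.1% of all genes, and in 1 the change with CSS did in shRNA and control cells, against 42.7%; with 1 array per condition none of these differences was tested. The change with shRNA in CSS minus that in FCS was -1.65 on the log2 scale for MAD2L1, -1.62 for KIF4A, -1.61 for TTK, -1.12 for NDC80, -1.09 for BUB1B and -1.04 for SMC2. It was -0.64 for FOXM1, -0.63 for ECT2, -0.59 for CENPE, -0.52 for RACGAP1, -0.40 for KIF11 and -0.30 for HMMR. TTK and SMC2 were at the lower limit with shRNA in CSS, so their values are bounds. The difference was positive for TOP2A at 0.50 and for CDKN3 at 0.45, the members that were lower with shRNA in FCS. For CCNB2 the change with CSS in shRNA cells minus that in control cells was 0.24. In no member did both changes of such a pair pass 2 local spreads.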

How the results depend on the processing

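The limma counts depended most on the processing. As fitted over all genes, 0 members passed for either main effect, and also with no filter, with the mean over probe sets, with plain-suffix probe sets and without the variance trend. Members passing for shRNA and for CSS numbered 22 and 14 with no lower limit, 18 and 10 with a limit of 100, 27 and 15 with a signal of at least 100 on 1 array, 13 and 10 with a common median, and 1 and 2 in the deposited values. In these settings the passing genes outside the members were not counted, so the members cannot be set against all genes there. Fits restricted to genes above the limit were chosen after the fit over all genes had called none. They gave 24 and 15 for genes above it on 1 array or more, 24 and 15 on 2 or more and 22 and 15 on all 4, and 0 in each set without the trend. Of all genes in these sets, 139 of 8855, 154 of 7965 and 139 of 6974 passed as higher with shRNA. As lower with CSS, 126, 128 and 121 passed.

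Among the other values, 3 local spreads in place of 2 left 4 members past them with shRNA in FCS, 4 with shRNA in CSS, 1 with CSS in control cells, 2 with CSS in shRNA cells and 0 with both treatments. A fixed 1.5-fold change in either direction gave 26 members with shRNA in CSS, 20 with CSS in shRNA cells and 16 with both treatments. By 2-fold or more, 689 of 8697 genes were higher and 601 lower with both treatments. The share of all genes was not counted at these thresholds or in the settings that follow. These counts therefore do not set the members against all genes. In the deposited values, the median with CSS in shRNA cells was -0.86, with 35 members past 2 local spreads and 0 higher. The median of all genes was itself -0.19 there and was not taken off before the change was set against the spread. Relative to it the members' median was -0.67, against -0.49 after quantile normalization. Also in the deposited values, 4 members were past 2 local spreads with shRNA in CSS (26 higher) and 8 with both treatments (13 higher). There 1 member was higher with CSS in control cells. With a common median, 16 members were past 2 local spreads with CSS in shRNA cells. A limit of 100 gave 9 with CSS in control cells, 5 with CSS in shRNA cells and 1 with both, and the mean over probe sets left 2 higher with CSS in shRNA cells. The causes were not tested. Normalization of 3 arrays without that of shRNA cells in CSS, chosen after seeing the data, gave medians of 0.60 with shRNA in FCS (23 past 2 local spreads) and of -0.38 with CSS in control cells (13 past them). Over all settings the median ran between 0.57 and 0.63 with shRNA in FCS, between -0.42 and -0.33 with CSS in control cells, between 0.03 and 0.60 with shRNA in CSS and between -0.40 and 0.06 with both treatments. In the 300-base promoter window, also chosen after seeing the data, CHR was found in 30 members (69.8%), against 15.4% of all promoters. No paired analysis by replicate number was possible because each condition had 1 array, and the fit with serum and shRNA as terms is the one that pairs arrays of the same serum or cell background. The number of arrays, 1 per condition, limits the precision of every value.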
